A study of Mus musculus with 48 samples.

Results

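The collagen chain genes, each of which encodes one of the polypeptides that fold together into a collagen molecule, were followed in the livers of 48 male C57Bl6J mice. Members were chosen by name alone: every array probe whose gene symbol is Col, a type number, a and a chain number. The array holds 44 such genes among its 37074 gene names, with 91 probes between them. Each gene is represented here by its brightest probe.

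The study asked what PPARα, a lipid-sensing nuclear receptor, does in hepatocytes and in the rest of the body when mice become obese. The mice were wild type (WT), lacked Pparα in hepatocytes (Pparα hep-/-: a floxed Pparα allele cut by a Cre driven by the albumin promoter) or lacked it in the germline (Pparα-/-). They were fed a low-fat control diet (CTRL) or a high-fat diet (HFD, 60% fat by its label) at thermoneutrality, with 8 mice in each of 6 groups. The labels give 20 weeks as the age and 12 weeks as the time on diet, while the study's own text gives a shorter feeding time. WT mice were purchased, whereas the other lines were bred locally, so breeding source and genotype cannot be told apart. Liver RNA of each mouse was hybridised alone to an Agilent 1-colour array. The tissue is bulk liver, so more collagen-making cells and more RNA per cell cannot be told apart.

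Collagens are triple helices with glycine at regular steps along each chain. Types I, III and V form the fibrils of a scar, with type V setting fibril diameter. Type IV builds the network of basement membranes, type VI forms beaded filaments around cells, and the fibril-associated types XII, XIV and XVI decorate fibril surfaces. In liver most fibrillar collagen comes from hepatic stellate cells and portal fibroblasts, and it accumulates in fibrosis.

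The glycine repeat can be read in some of the 60-base probes themselves. A probe was taken to show it where the glycine codon GGN recurred at 4 or more consecutive positions spaced by 9 bases, on the probe strand. This held for 7 of the 91 collagen probes (7.69%) and for 46 of the 56605 probes of the array (0.0813%). The 4 below belong to chains described in the results. They are printed 5′ to 3′ from the probe column of the scanner files, with the codons of the run in capitals and coordinates in mm9.
Col14a1 brightest probe (chr15:55347733-55347792, + strand): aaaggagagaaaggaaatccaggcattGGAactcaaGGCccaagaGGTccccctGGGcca
Col15a1 brightest probe (chr4:47283786-47283845, + strand): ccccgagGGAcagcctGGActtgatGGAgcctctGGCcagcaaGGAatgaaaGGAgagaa
Col5a3 second probe (chr9:20590066-20590795, - strand): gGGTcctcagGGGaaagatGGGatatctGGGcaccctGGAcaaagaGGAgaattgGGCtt
Col6a3 second probe (chr1:92689602-92690594, - strand): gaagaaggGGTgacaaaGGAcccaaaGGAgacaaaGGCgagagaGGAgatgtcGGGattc
The Col14a1 and Col15a1 probes span 60 bases of the genome. The Col5a3 and Col6a3 probes span 730 and 993 bases, so each is read across joined exons.

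Every array had a median spot intensity of 56 to 91, and 28234 to 38217 of its 59305 spots stood well above background. All 7 hepatocyte markers examined were well above background on all 48 arrays. The 2 Ppara probes also stayed well above background in each group, with medians of 14.54 in WT CTRL, 14.11 in Pparα hep-/- CTRL and 13.92 in Pparα-/- CTRL for the brighter one. In the same order its medians on HFD were 15.07, 14.24 and 14.03. Those of the dimmer probe were 12.86, 12.8 and 11.81 on CTRL and 13.36, 12.69 and 12.08 on HFD. Whether the 2 probes lie in the deleted part is not given in the sources used here, so they do not check the labels. The model weights each array by how well it follows its group over all probes. The weights ran from 0.189 (Pparα hep-/- CTRL mouse 1) and 0.208 (WT CTRL mouse 6) to 2.53, and these 2 arrays reappear below.

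Of the 44 genes, 31 were tested, since their brightest probe exceeded the background clearly in 4 or more mice of some group. These were 9 of 11 fibrillar chains, 4 of 6 basement membrane chains, 5 of 6 beaded-filament chains, 5 of 9 fibril-associated chains, 3 of 4 transmembrane chains, both multiplexins (Col15a1 and Col18a1), 1 of 3 short-chain network genes (Col8a1), the anchoring-fibril gene Col7a1 and 1 of 2 others (Col26a1). The 13 not tested were Col10a1, Col11a1, Col19a1, Col22a1, Col24a1, Col25a1, Col28a1, Col4a3, Col4a4, Col6a6, Col8a2, Col9a1 and Col9a3. The brightest probes of Col6a6 and Col9a3 passed background on no array, and those of the other 11 on 9 arrays at most. Some members were tested only through the groups where they were brighter: Col2a1 and Col15a1 through Pparα hep-/- HFD, Col23a1 through Pparα-/- HFD and Col6a4 through the Pparα-/- groups. Their differences are given as descriptions, with no test. Col5a2, Col6a5, Col12a1 and Col4a6 passed in several groups but in neither WT group. At the other end, 17 genes were well above background on all 48 arrays.

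HFD raised 11 chains in both Pparα-deleted lines: Col1a1, Col1a2, Col3a1 and Col5a1 of the fibrils, Col4a1 of basement membranes, Col6a1, Col6a2 and Col6a3 of beaded filaments, and Col8a1, Col14a1 and Col16a1. None of the 31 genes was called higher in WT by limma. In Pparα hep-/- mice 15 members were called, 14 of them higher, at an adjusted p of at most 0.05, where 20.2% of the 33321 tested probes were called and 9.45% were called higher. In Pparα-/- mice 14 were called, 11 of them higher, against 24.8% of all probes called and 12.3% higher. One of the 14 in Pparα hep-/-, Col2a1, passed the filter through that HFD group alone, which leaves 13. In WT a single member was called, Col7a1, and it was lower, against 18.8% of all probes called and 8.6% higher. At an unadjusted p under 0.05 WT gave 2 members. With every array weighted alike, the called members numbered 1 in Pparα hep-/-, 4 in Pparα-/- and 1 in WT. The Pparα-/- values differed between the 2 wash batches: the 11 chains changed by 0.88 to 3.45 within the first and by -0.12 to 0.62, with none called, within the second. The 11 chains called higher in Pparα-/- were all among the 14 of Pparα hep-/- (78.6% of those 14). The same overlap over all tested probes is not given here. The 2 comparisons share no samples but come from a single model with a common estimate of the spread. Many chains were also high in the same mice, as described below. The median log2 change over the 31 members was 0.28 in Pparα hep-/-, 0.20 in Pparα-/- and 0.06 in WT, beside -0.01, -0.02 and -0.01 over all tested probes.

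Col1a1, the α1 chain of type I collagen and the main chain of scar fibrils, had the largest HFD change of the 31 members in both deleted lines. On CTRL its normalised log2 intensity was 7.21 to 11.93 (median 8.30) in WT, 7.83 to 12.68 (median 9.10) in Pparα hep-/- and 6.55 to 11.53 (median 8.45) in Pparα-/-. On HFD it was 7.53 to 12.63 (median 8.63) in WT, 10.38 to 11.69 (median 11.19) in Pparα hep-/- and 9.16 to 11.78 (median 10.46) in Pparα-/-. The 8 Pparα hep-/- HFD livers were all high and close together, with an SD of 0.396. The SD was 1.57 in both WT groups and in Pparα hep-/- CTRL, 1.68 in Pparα-/- CTRL and 0.945 in Pparα-/- HFD. HFD changed Col1a1 by 2.18 ± 0.48 (adjusted p = 0.0011) on the log2 scale in Pparα hep-/- (limma, ± SE; 4.52-fold), by 1.51 ± 0.50 (adjusted p = 0.0228) in Pparα-/- (2.85-fold over both wash batches, 3.45 and -0.12 on the log2 scale within each) and by 0.46 ± 0.56 (adjusted p = 0.645) in WT. In each genotype the ranges of the 2 diets overlapped.

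Col1a2, which encodes the second type I chain, and Col3a1, the single chain of type III collagen, followed the same order. Col1a2 lay on CTRL at 9.69 to 13.83 (median 10.41) in WT, 10.55 to 13.97 (median 11.06) in Pparα hep-/- and 9.75 to 13.27 (median 10.95) in Pparα-/-, and on HFD at 9.98 to 14.24 (median 10.68) in WT, 12.35 to 13.25 (median 12.84) in Pparα hep-/- and 11.49 to 13.58 (median 12.35) in Pparα-/-. Col3a1 lay on CTRL at 9.34 to 13.46 (median 10.01) in WT, 9.81 to 14.04 (median 10.84) in Pparα hep-/- and 9.15 to 12.83 (median 10.27) in Pparα-/-, and on HFD at 9.40 to 13.84 (median 10.27) in WT, 11.64 to 12.81 (median 12.46) in Pparα hep-/- and 10.73 to 12.87 (median 11.89) in Pparα-/-. The Pparα hep-/- HFD livers again formed the tightest group, above the medians of all CTRL groups. Col1a2 rose by 1.67 ± 0.36 (adjusted p = 0.00106) in Pparα hep-/- and 1.24 ± 0.38 (adjusted p = 0.0145) in Pparα-/-, and differed by 0.34 ± 0.43 (adjusted p = 0.657) in WT. Col3a1 rose by 1.56 ± 0.39 (adjusted p = 0.0037) and 1.18 ± 0.41 (adjusted p = 0.0294), and differed by 0.31 ± 0.46 (adjusted p = 0.714) in WT.

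**Figure D1:**
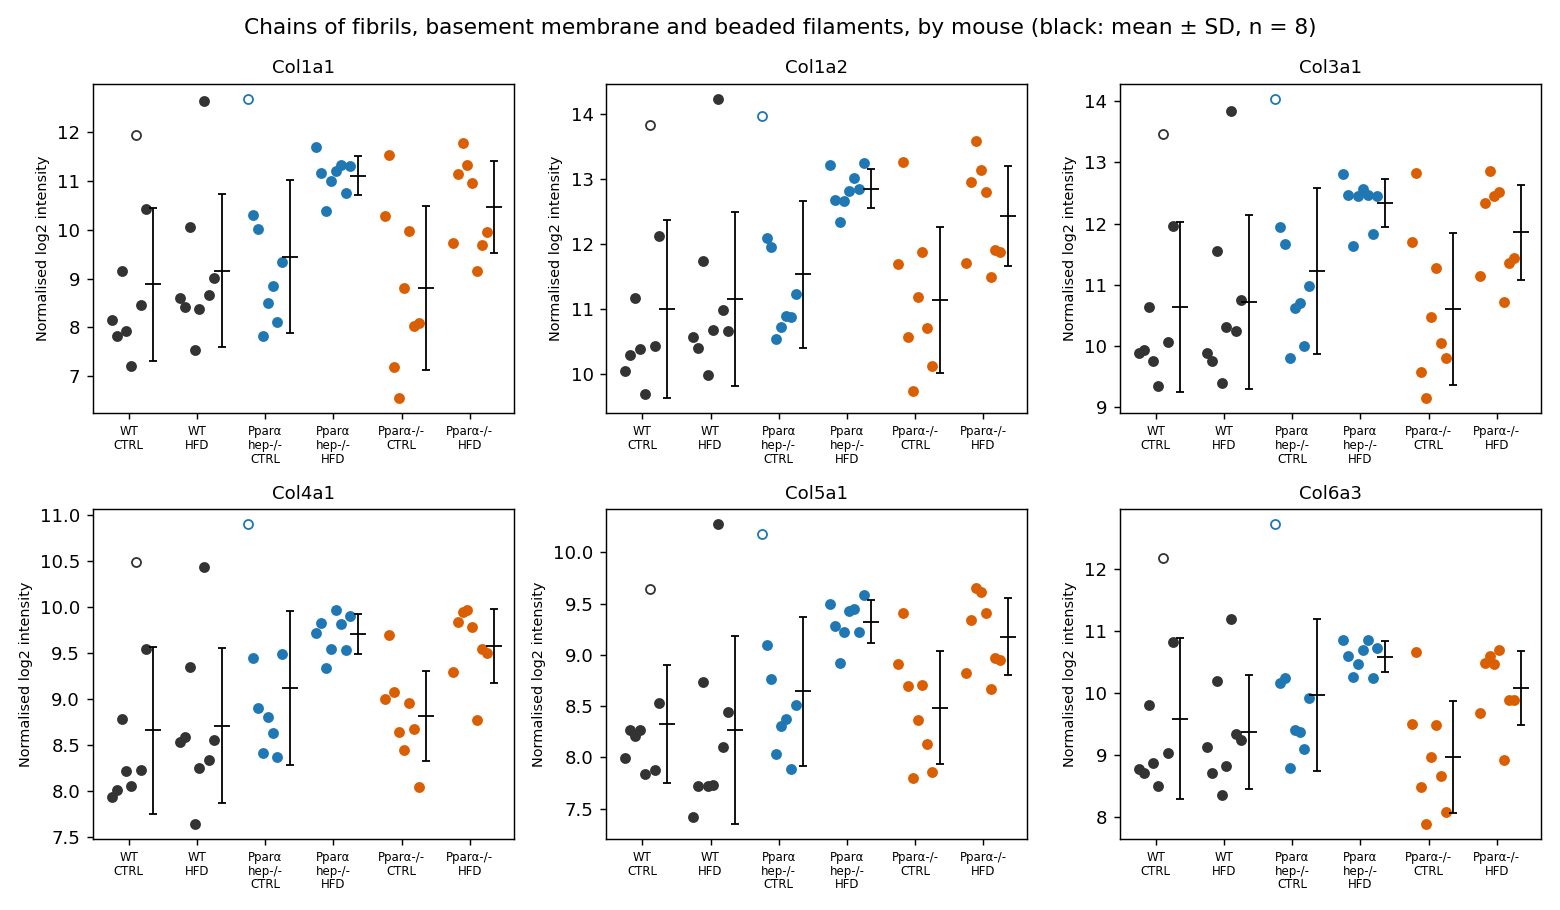
Normalised log2 intensity (y axis) of 6 chains in each mouse of the 6 genotype-by-diet groups (x axis); black marks are the mean ± SD of 8 mice, and hollow points are the 2 arrays of weight under 0.25. Pparα hep-/- HFD livers cluster at high levels (Col1a1 10.38 to 11.69), while single high livers stand above the rest in the WT groups and in Pparα hep-/- CTRL.

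Type V chains did not move together. Col5a1 was 7.84 to 9.64 (median 8.24) in WT, 7.89 to 10.18 (median 8.45) in Pparα hep-/- and 7.80 to 9.41 (median 8.53) in Pparα-/- on CTRL and 7.42 to 10.27 (median 7.92) in WT, 8.93 to 9.59 (median 9.35) in Pparα hep-/- and 8.66 to 9.66 (median 9.15) in Pparα-/- on HFD. It rose on HFD by 0.91 ± 0.20 (adjusted p = 0.0013) in Pparα hep-/- and 0.72 ± 0.21 (adjusted p = 0.0108) in Pparα-/-. Col5a2 changed by 0.12 ± 0.19 (adjusted p = 0.704) and -0.04 ± 0.20 (adjusted p = 0.92) in the same comparisons, and Col5a3 by -0.19 ± 0.14 (adjusted p = 0.363) and -0.17 ± 0.15 (adjusted p = 0.431); neither was called. Col2a1, the cartilage chain, passed background on at most 4 arrays of a group and differed by 0.36 on HFD in Pparα hep-/-. Col11a2 was not called in any of the 12 comparisons.

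The beaded-filament chains Col6a1, Col6a2 and Col6a3, which assemble with one another, rose in both deleted lines. Col6a1 was 9.25 to 11.91 (median 9.57) in WT, 9.70 to 12.30 (median 10.07) in Pparα hep-/- and 8.65 to 10.92 (median 9.73) in Pparα-/- on CTRL, and 8.99 to 11.62 (median 9.78) in WT, 10.73 to 11.31 (median 11.04) in Pparα hep-/- and 9.92 to 11.23 (median 10.84) in Pparα-/- on HFD. Col6a2 was 6.27 to 8.58 (median 6.71) in WT, 6.34 to 9.15 (median 6.99) in Pparα hep-/- and 6.15 to 7.60 (median 6.99) in Pparα-/- on CTRL, and 6.78 to 8.25 (median 6.88) in WT, 7.57 to 8.21 (median 7.78) in Pparα hep-/- and 6.91 to 7.98 (median 7.54) in Pparα-/- on HFD. Col6a3 was 8.51 to 12.17 (median 8.95) in WT, 8.80 to 12.71 (median 9.66) in Pparα hep-/- and 7.89 to 10.66 (median 8.82) in Pparα-/- on CTRL, and 8.36 to 11.19 (median 9.19) in WT, 10.24 to 10.86 (median 10.64) in Pparα hep-/- and 8.92 to 10.69 (median 10.18) in Pparα-/- on HFD. All 8 Pparα hep-/- HFD livers exceeded the Pparα hep-/- CTRL median for each of these genes. The rise in Pparα hep-/- was 1.01 ± 0.24 (adjusted p = 0.00207) for Col6a1, 0.99 ± 0.20 (adjusted p = 0.00035) for Col6a2 and 1.06 ± 0.30 (adjusted p = 0.0102) for Col6a3. In Pparα-/- it was 0.95 ± 0.25 (adjusted p = 0.00416), 0.57 ± 0.21 (adjusted p = 0.0356) and 1.09 ± 0.31 (adjusted p = 0.0089).

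Of the 4 tested basement membrane chains, Col4a1 alone was called on HFD. Col4a1, which forms the usual type IV network with Col4a2, was 7.94 to 10.49 (median 8.22) in WT, 8.36 to 10.90 (median 8.85) in Pparα hep-/- and 8.05 to 9.69 (median 8.81) in Pparα-/- on CTRL and 7.64 to 10.43 (median 8.55) in WT, 9.33 to 9.97 (median 9.77) in Pparα hep-/- and 8.77 to 9.96 (median 9.66) in Pparα-/- on HFD. Col4a2, its head-to-head neighbour on chromosome 8, was 8.28 to 10.53 (median 8.67) in WT, 9.09 to 11.01 (median 9.36) in Pparα hep-/- and 8.51 to 9.70 (median 9.51) in Pparα-/- on CTRL and 7.99 to 10.46 (median 8.80) in WT, 9.50 to 10.28 (median 9.98) in Pparα hep-/- and 9.05 to 10.20 (median 9.93) in Pparα-/- on HFD. Col4a1 rose by 0.85 ± 0.22 (adjusted p = 0.00465) in Pparα hep-/- and 0.80 ± 0.23 (adjusted p = 0.0081) in Pparα-/-, whereas Col4a2 gave 0.48 ± 0.20 (adjusted p = 0.0848) and 0.47 ± 0.21 (adjusted p = 0.0944) and was not called. Col4a5 and Col4a6 were not called on HFD in any genotype.

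Among the fibril-associated chains, Col14a1 was 7.13 to 8.10 (median 7.48) in WT, 7.62 to 8.71 (median 8.15) in Pparα hep-/- and 7.41 to 8.56 (median 8.20) in Pparα-/- on CTRL and 6.67 to 9.28 (median 7.50) in WT, 8.04 to 8.93 (median 8.50) in Pparα hep-/- and 8.29 to 9.11 (median 8.69) in Pparα-/- on HFD. Its HFD change was 0.52 ± 0.18 (adjusted p = 0.0345) in Pparα hep-/- and 0.54 ± 0.19 (adjusted p = 0.0311) in Pparα-/-. Col16a1 changed by 0.63 ± 0.18 (adjusted p = 0.0125) and 0.84 ± 0.19 (adjusted p = 0.00124). Col12a1, which binds type I fibrils, was 5.17 to 6.5 (median 5.57) in WT, 5.22 to 6.46 (median 5.76) in Pparα hep-/- and 5.01 to 6.28 (median 5.35) in Pparα-/- on CTRL and 4.98 to 6.15 (median 5.49) in WT, 5.77 to 6.52 (median 6.25) in Pparα hep-/- and 5.53 to 5.94 (median 5.82) in Pparα-/- on HFD. It rose in Pparα hep-/- by 0.62 ± 0.12 (adjusted p = 0.000281), where 7 of 8 HFD arrays passed background, and gave 0.30 ± 0.13 (adjusted p = 0.0743) in Pparα-/-. Col8a1, a short chain of vessel walls, rose by 1.00 ± 0.26 (adjusted p = 0.00535) and 1.09 ± 0.27 (adjusted p = 0.00289).

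A few chains fell on HFD. Col20a1 fell by 1.59-fold in Pparα hep-/- (-0.67 ± 0.12, adjusted p = 8.6e-05) and 1.55-fold in Pparα-/- (-0.64 ± 0.12, adjusted p = 0.00023). Col7a1, which anchors the epidermis, was 6.79 to 7.65 (median 7.16) in WT, 6.63 to 6.88 (median 6.74) in Pparα hep-/- and 6.64 to 7.22 (median 6.87) in Pparα-/- on CTRL and 6.56 to 6.97 (median 6.75) in WT, 6.43 to 6.90 (median 6.70) in Pparα hep-/- and 6.32 to 6.80 (median 6.46) in Pparα-/- on HFD. Its change on HFD was -0.45 ± 0.10 (adjusted p = 0.000816) in WT, -0.40 ± 0.09 (adjusted p = 0.000744) in Pparα-/- and -0.03 ± 0.08 (adjusted p = 0.862) in Pparα hep-/-. Col27a1 was called in Pparα-/- alone, with a change of -0.90 ± 0.27 (adjusted p = 0.0123).

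**Figure D2:**
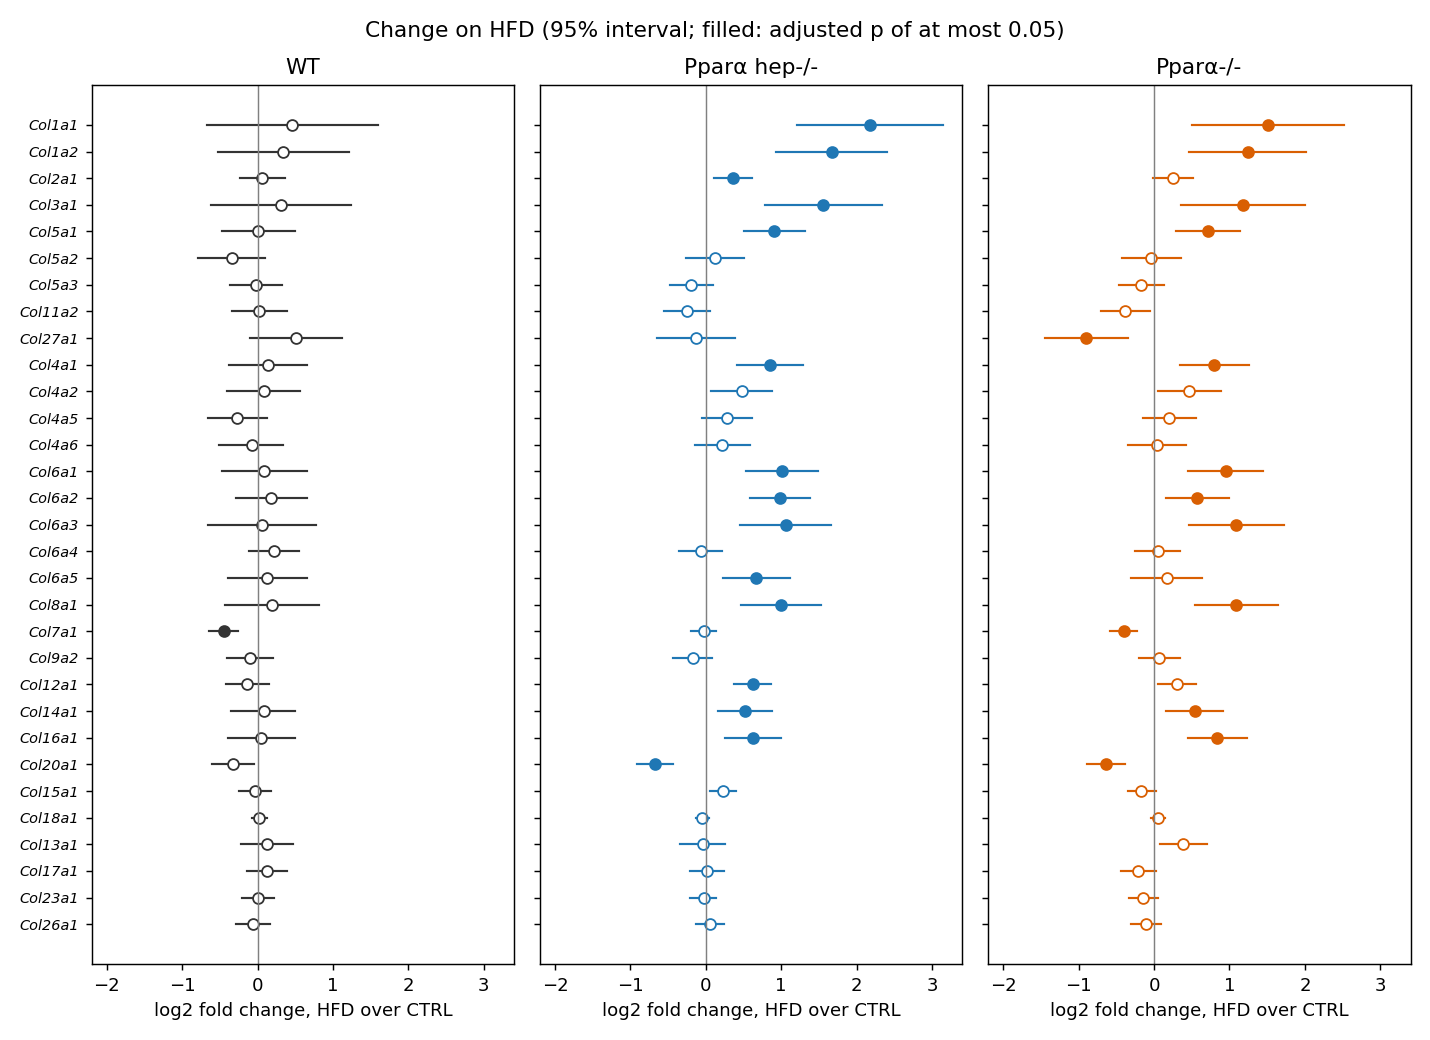
Change of 31 chains on HFD in each genotype: the x axis is the log2 fold change, HFD over CTRL, with its 95% interval, and filled points passed an adjusted p of at most 0.05. Col1a1, Col1a2 and Col3a1 lie farthest right in both deleted lines, and the WT intervals of these genes span 0.

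Tests of whether the HFD response itself differed between genotypes called few members. The response of Pparα hep-/- exceeded that of WT for Col12a1 by 0.76 ± 0.19 (adjusted p = 0.00771) and for Col7a1 by 0.43 ± 0.13 (adjusted p = 0.0268), 2 members called against 10.4% of all probes. For Col1a1 the difference was 1.71 ± 0.74 (adjusted p = 0.128) with a 95% interval of 0.22 to 3.21, for Col1a2 1.32 ± 0.57 (adjusted p = 0.122) at the brightest probe and 1.12 ± 0.34 (adjusted p = 0.0268) at the second, which was called, and for Col3a1 1.25 ± 0.60 (adjusted p = 0.177). The second Col1a2 probe changed by 0.62 in Pparα hep-/- and by -0.5 in WT, where the brightest gave 0.34. It passed background on 4 of 8 WT CTRL and 3 of 8 WT HFD arrays. Pparα-/- against WT called Col27a1 alone (-1.41 ± 0.41, adjusted p = 0.0163; 14.3% of all probes), and Col1a1 gave 1.04 ± 0.75 (adjusted p = 0.369) with an interval of -0.48 to 2.56. Pparα-/- against Pparα hep-/- called no member by limma, beside 3.42% of all probes and 4 members at an unadjusted p under 0.05. The 2 comparisons against WT share the WT samples.

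These calls depended on the array weights. The member still called in Pparα hep-/- with every array weighted alike was Col20a1, where 3.81% of all probes were called. The 4 in Pparα-/- were Col6a1, Col7a1, Col16a1 and Col20a1, where 12.1% of all probes were called. The 14 chains called higher in Pparα hep-/- then had changes of 0.21 to 1.68 and none was called; for Col1a1 the change was 1.68 (adjusted p = 0.176). Leaving out the 2 arrays of weight under 0.25, again with all arrays alike, gave 10 called members in each deleted line, all among those called with weights, beside 8.28% of all probes in Pparα hep-/- and 17.1% in Pparα-/-.

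Single mice held the highest value of many members at once. In WT CTRL mouse 6 held the highest value of 16 of the 31 members, in WT HFD mouse 6 of 15, in Pparα hep-/- CTRL mouse 1 of 19 and in Pparα-/- CTRL mouse 2 of 18. Their Col1a1 levels were 11.93, 12.63, 12.68 and 11.53. In Pparα-/- HFD mouse 3 held 12 and mouse 4 held 8, and in Pparα hep-/- HFD no mouse held more than 6. The median within-group SD of the members was 0.445 in WT CTRL, 0.488 in WT HFD, 0.50 in Pparα hep-/- CTRL and 0.407 in Pparα-/- CTRL, against 0.265 and 0.344 in the HFD groups of Pparα hep-/- and Pparα-/-. Over all tested probes it was 0.173 to 0.222.

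**Figure D3:**
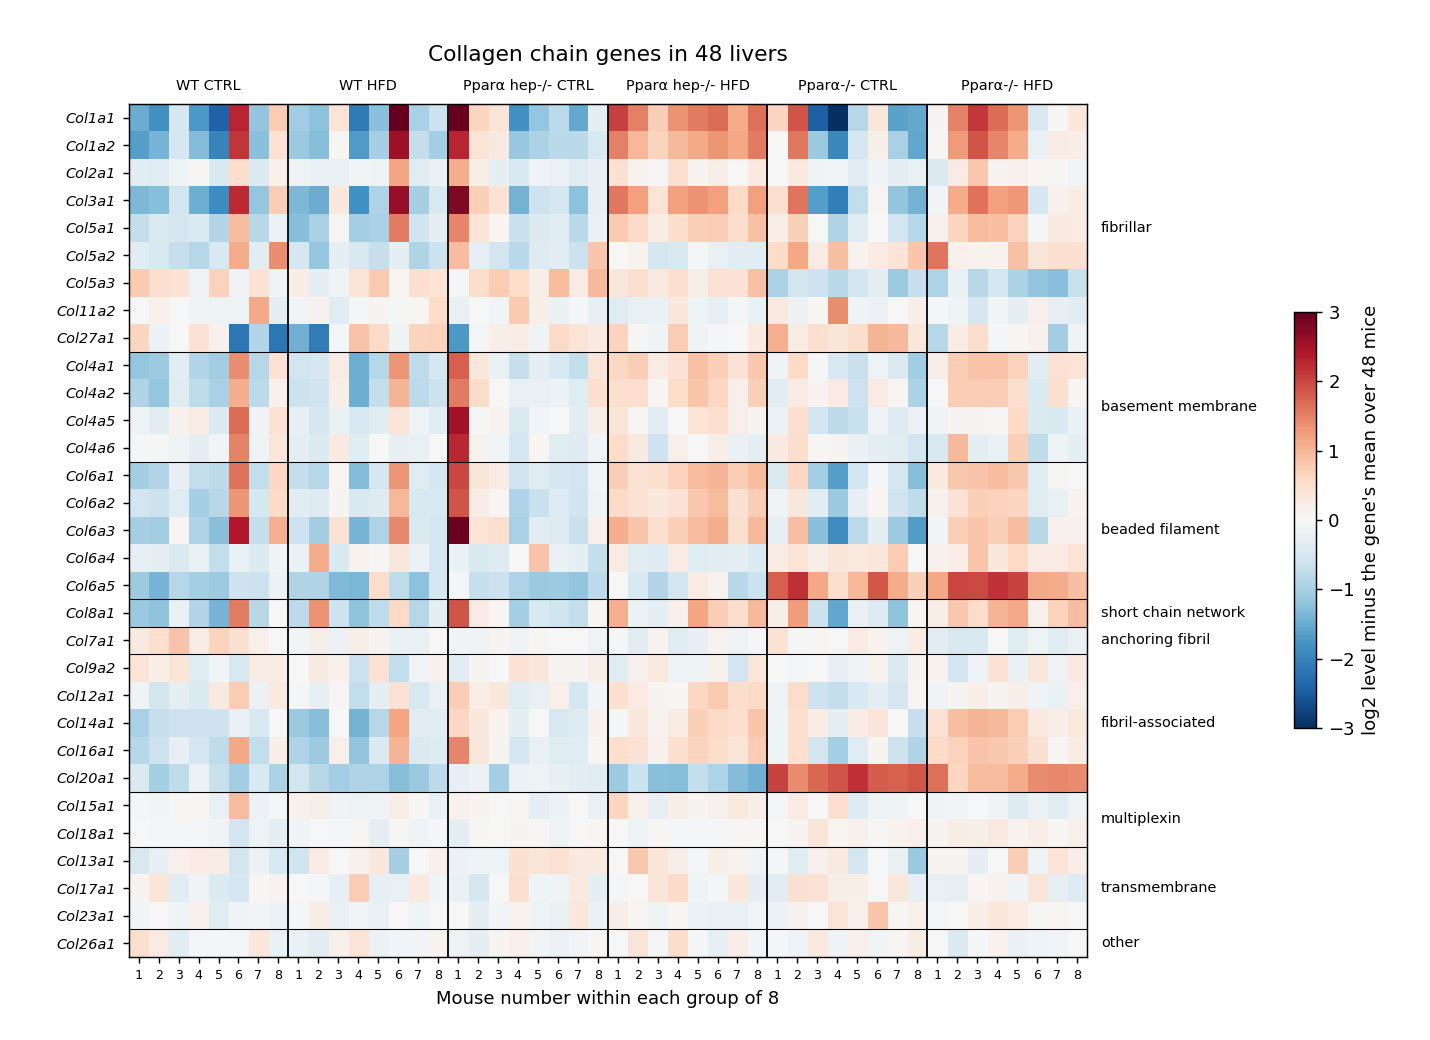
Level of 31 chains (rows, by class) in 48 livers (columns, by group and mouse number), as log2 intensity minus the gene's mean over all mice; differences beyond 3 take the end colours. Columns such as Pparα hep-/- CTRL mouse 1 and WT HFD mouse 6 are high for most fibrillar, type IV and type VI chains, and the Col20a1 row is higher in the 16 Pparα-/- livers (8.03 and above) than in all others (7.23 and below).

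Arrays were washed in 2 batches, which the labels name, with 3 to 5 arrays of each group in each. In Pparα hep-/- the 14 chains called higher were positive in both batches, with changes of 0.45 to 2.82 in the first and 0.27 to 1.84 in the second. Of these 14, 6 were called within each batch, where 4.93% and 5.14% of all probes were called. Of the 11 in Pparα-/-, 10 were called within the first batch and none within the second, where 9.58% and 11.9% of all probes were called. Pparα-/- CTRL livers of the first batch had Col1a1 at 6.55 to 8.80 (median 7.61), and those of the second at 8.10 to 11.53 (median 10.13). The part of the wash in this difference was not tested.

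**Figure D4:**
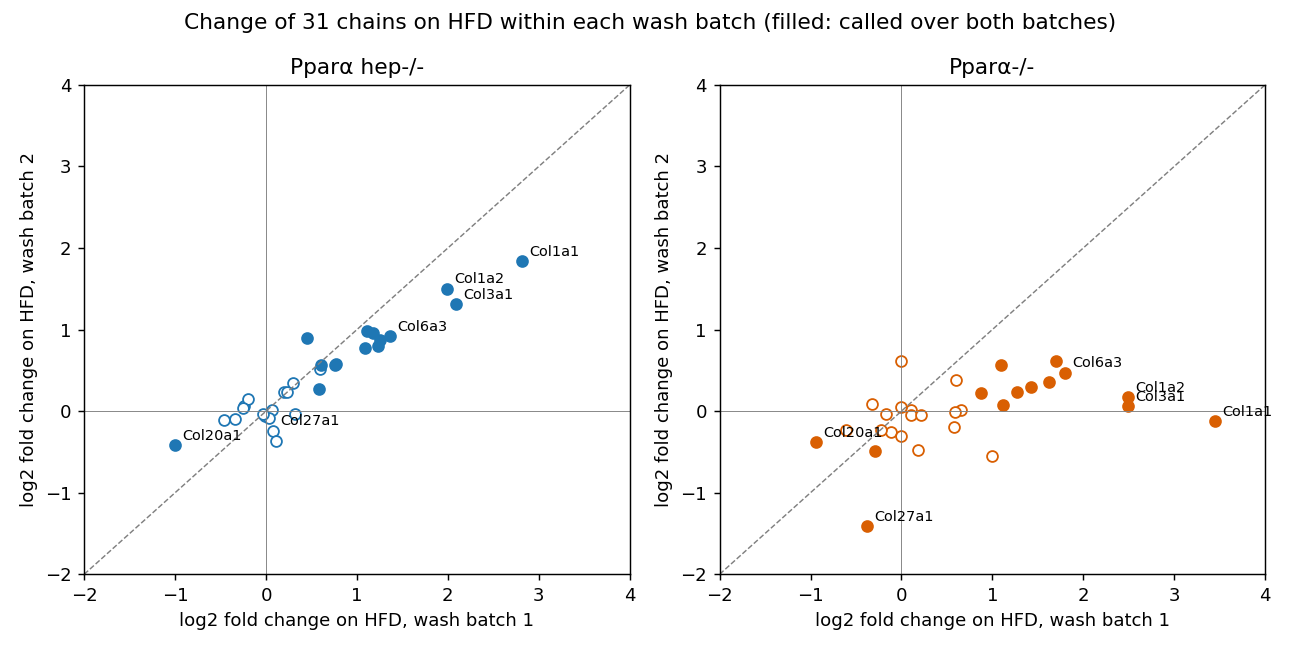
Log2 fold change on HFD of 31 chains within wash batch 1 (x axis) and wash batch 2 (y axis), for Pparα hep-/- (left) and Pparα-/- (right); filled points were called over both batches and the dashed line marks equal change. The 14 chains called higher in Pparα hep-/- are positive on both axes, while the 11 called higher in Pparα-/- lie at -0.12 to 0.62 on the y axis and Col27a1 lies at -1.41.

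On CTRL the share of chains called with the germline deletion was near that of all probes. Pparα-/- against WT called 10 members (32.3%), 8 higher and 2 lower, beside 34.2% of all probes called and 15.6% higher. Pparα-/- against Pparα hep-/- called 7 (22.6%), 5 of them higher, beside 25.2% and 12.2%. These 5 include Col6a4 and Col23a1, which were tested only through Pparα-/- groups. Of the 8 higher than in WT, Col5a2, Col6a4, Col6a5 and Col23a1 passed the filter in neither WT group, which leaves 4. Pparα hep-/- against WT called 2 (24.7% and 11.3%), Col4a2 higher by 0.72 ± 0.23 (adjusted p = 0.0176) and Col7a1 lower (-0.45 ± 0.10, adjusted p = 0.000384). None of the type I or type III chains was called on CTRL.

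Col20a1, a fibril-associated chain, did not overlap between Pparα-/- and the other genotypes. Its level was 6.33 to 7.20 (median 6.66) in WT, 6.36 to 7.23 (median 7.13) in Pparα hep-/- and 8.79 to 9.56 (median 9.22) in Pparα-/- on CTRL, and 6.09 to 6.82 (median 6.46) in WT, 5.95 to 6.74 (median 6.21) in Pparα hep-/- and 8.03 to 9.04 (median 8.64) in Pparα-/- on HFD. The lowest Pparα-/- liver, at 8.03, lay above the highest of the other genotypes, at 7.23. It was 5.5-fold higher than in WT on CTRL (2.46 ± 0.14, adjusted p = 9.21e-19) and 4.45-fold higher on HFD (2.15 ± 0.12, adjusted p = 2.76e-19). The differences from Pparα hep-/- were 2.23 ± 0.13 (adjusted p = 5.54e-19) and 2.26 ± 0.11 (adjusted p = 5.06e-21).

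Col6a5, an alternative chain of type VI, was separated within each diet. It was 5.09 to 6.30 (median 5.54) in WT, 5.28 to 6.44 (median 5.62) in Pparα hep-/- and 6.98 to 8.67 (median 7.61) in Pparα-/- on CTRL, and 5.11 to 7.02 (median 5.57) in WT, 5.60 to 6.71 (median 5.98) in Pparα hep-/- and 7.37 to 8.63 (median 8.05) in Pparα-/- on HFD. All 16 Pparα-/- arrays passed background, against 2 of 8 in WT CTRL, 3 of 8 in WT HFD, 4 of 8 in Pparα hep-/- CTRL and 7 of 8 in Pparα hep-/- HFD. The Pparα-/- livers did not overlap those of the other genotypes on CTRL or on HFD. Pparα-/- exceeded WT by 2.26 ± 0.26 (adjusted p = 2.11e-09) on CTRL and 2.29 ± 0.23 (adjusted p = 1.72e-11) on HFD, and Pparα hep-/- by 2.27 ± 0.24 (adjusted p = 1.34e-10) and 1.77 ± 0.21 (adjusted p = 4.93e-09). On HFD it rose in Pparα hep-/- by 0.67 ± 0.22 (adjusted p = 0.0249). Its chromosome 9 neighbour Col6a4, tested only through the Pparα-/- groups, read 4.71 to 5.33 in WT CTRL and 5.44 to 6.21 in Pparα-/- CTRL. No WT CTRL array measured Col6a4 above background and 4 of 8 Pparα-/- CTRL arrays did, so the size of that difference is not given.

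Type V chains divided in the germline deletion. Col5a2 was 5.13 to 7.38 (median 5.61) in WT, 5.20 to 6.93 (median 5.64) in Pparα hep-/- and 6.10 to 7.16 (median 6.47) in Pparα-/- on CTRL, and 4.84 to 5.71 (median 5.42) in WT, 5.48 to 6.10 (median 5.72) in Pparα hep-/- and 6.09 to 7.59 (median 6.40) in Pparα-/- on HFD. It was higher in Pparα-/- than in WT by 0.83 ± 0.23 (adjusted p = 0.00338) on CTRL and 1.14 ± 0.19 (adjusted p = 4.73e-06) on HFD, and on HFD the 2 groups did not overlap. Col5a3 was 10.66 to 11.58 (median 11.22) in WT, 10.76 to 11.76 (median 11.32) in Pparα hep-/- and 9.69 to 10.49 (median 10.14) in Pparα-/- on CTRL, and 10.52 to 11.57 (median 11.11) in WT, 10.96 to 11.67 (median 11.22) in Pparα hep-/- and 9.53 to 10.60 (median 9.91) in Pparα-/- on HFD. It was 2.1-fold lower in Pparα-/- than in WT on CTRL (-1.07 ± 0.17, adjusted p = 2.17e-06) and 2.33-fold lower on HFD (-1.22 ± 0.15, adjusted p = 3.07e-09). On CTRL the lowest WT liver, at 10.66, exceeded the highest Pparα-/- liver, at 10.49.

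**Figure D5:**
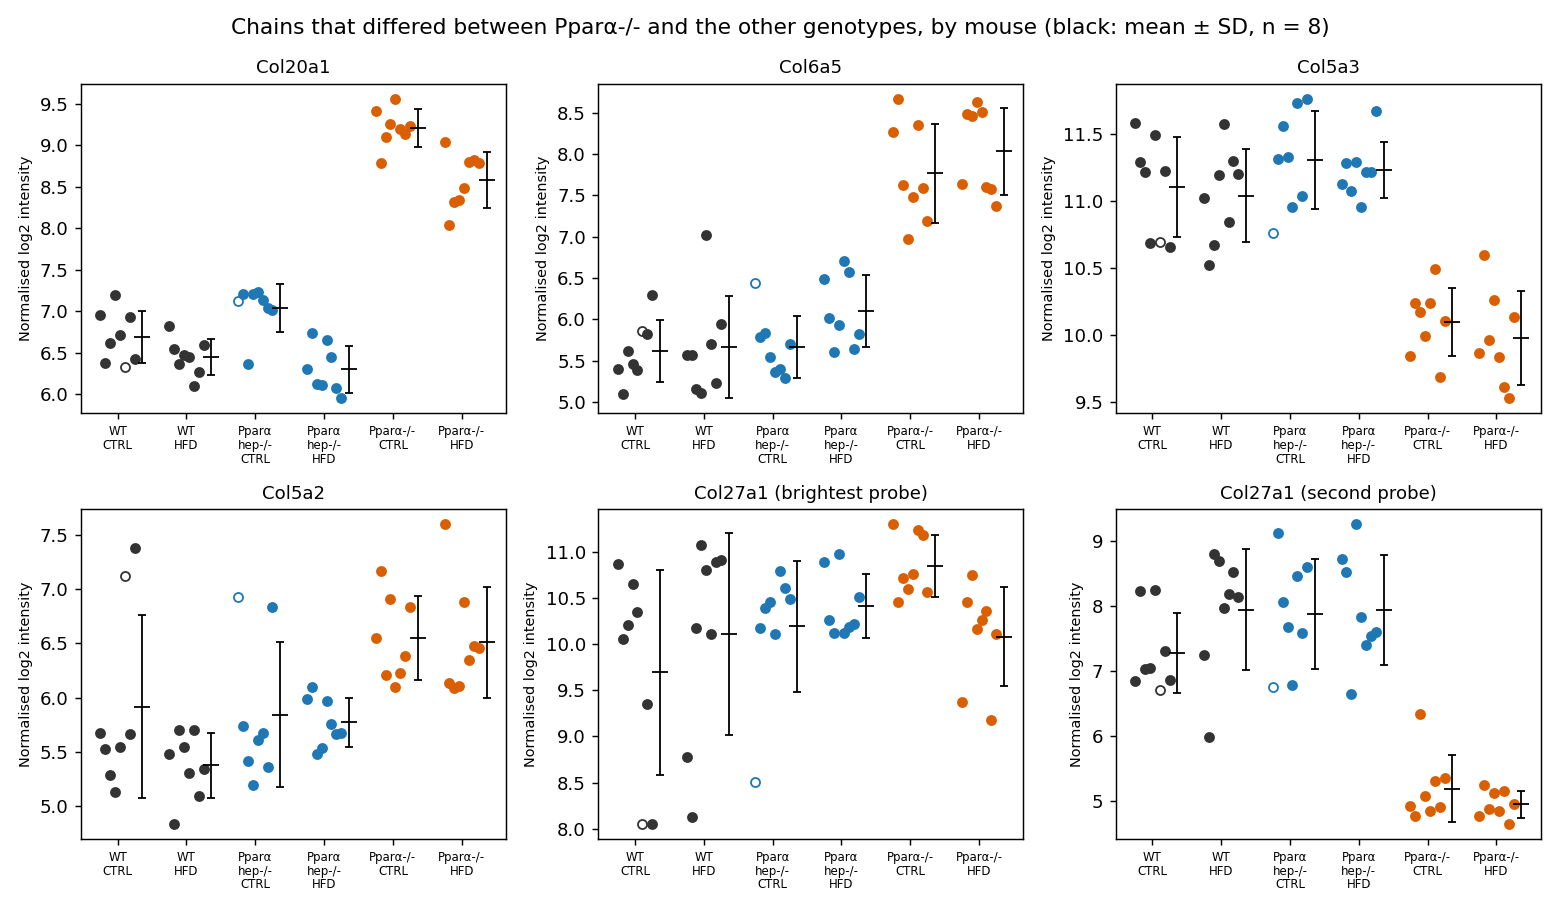
Normalised log2 intensity (y axis) of 5 chains by mouse in the 6 groups (x axis), with both Col27a1 probes; black marks are the mean ± SD of 8 mice, and hollow points are the 2 arrays of weight under 0.25. Col20a1 and Col6a5 are high and Col5a3 is low in Pparα-/- livers on both diets, and the second Col27a1 probe is near background there (at most 6.34).

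Of the 31 members, 5 did not overlap between Pparα-/- and WT on CTRL (6.15% of all tested probes did not) and 3 on HFD (6.93%), counting Col6a4, which was tested only through the Pparα-/- groups. Against Pparα hep-/- the counts were 3 on CTRL (4.43%) and 3 on HFD (6.55%). They were drawn from Col20a1, Col6a5, Col5a3, Col5a2, Col6a4 and Col18a1. No member was free of overlap in any HFD against CTRL comparison.

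Col18a1 differed by a small amount with the germline deletion, and Col23a1 lay near background. Col18a1, the source of endostatin, was 15.88 to 16.46 (median 16.38) in WT, 16.17 to 16.54 (median 16.48) in Pparα hep-/- and 16.47 to 16.82 (median 16.55) in Pparα-/- on CTRL, and 16.16 to 16.5 (median 16.42) in WT, 16.30 to 16.49 (median 16.44) in Pparα hep-/- and 16.48 to 16.73 (median 16.63) in Pparα-/- on HFD. It exceeded WT by 0.19 ± 0.05 (adjusted p = 0.00347) on CTRL and 0.23 ± 0.04 (adjusted p = 5.15e-05) on HFD. Col23a1, a transmembrane collagen, was tested only through Pparα-/- HFD. It passed background on no WT array and on 2 of 8 Pparα-/- CTRL arrays. It lay at 5.19 to 5.69 in WT CTRL and at 5.39 to 6.41 in Pparα-/- CTRL, and the size of that difference is not given. Its difference from Pparα hep-/- on CTRL was 0.31 overall and -0.05 within the first wash batch.

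Col13a1 was called in a single comparison. Col15a1 passed the filter only through Pparα hep-/- HFD, the higher group of its single call, so it is described without a test. Col15a1, the other multiplexin, stood at 5.19 to 6.36 (median 5.38) in WT, 5.12 to 5.55 (median 5.43) in Pparα hep-/- and 5.04 to 5.93 (median 5.38) in Pparα-/- on CTRL, and at 5.20 to 5.62 (median 5.38) in WT, 5.17 to 6.07 (median 5.57) in Pparα hep-/- and 5.04 to 5.40 (median 5.30) in Pparα-/- on HFD. No Pparα-/- HFD array and 4 of 8 Pparα hep-/- HFD arrays measured it above background, so the size of the difference is not given. Col13a1, a transmembrane collagen, was 7.53 to 8.33 (median 7.88) in WT, 7.92 to 8.54 (median 8.37) in Pparα hep-/- and 6.97 to 8.36 (median 7.95) in Pparα-/- on CTRL, and 7.09 to 8.44 (median 8.17) in WT, 7.98 to 8.90 (median 8.24) in Pparα hep-/- and 7.82 to 8.82 (median 8.17) in Pparα-/- on HFD. It was lower in Pparα-/- than in Pparα hep-/- on CTRL (-0.42 ± 0.16, adjusted p = 0.0432). Col4a6, Col9a2, Col11a2, Col17a1 and Col26a1 were called in none of the 12 comparisons.

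Col27a1, a fibrillar chain with a short helix, is the member whose 2 tested probes were called in opposite directions. The brightest probe (chr4:62995485-62995544, mm9) was 8.05 to 10.86 (median 10.13) in WT, 8.51 to 10.79 (median 10.42) in Pparα hep-/- and 10.45 to 11.30 (median 10.73) in Pparα-/- on CTRL, and 8.12 to 11.07 (median 10.49) in WT, 10.12 to 10.97 (median 10.24) in Pparα hep-/- and 9.18 to 10.74 (median 10.21) in Pparα-/- on HFD. The second probe, described in the files from an Ensembl transcript, starts 41877 bases upstream and gave 6.71 to 8.25 (median 7.03) in WT CTRL, 6.75 to 9.12 (median 7.87) in Pparα hep-/- CTRL and 4.76 to 6.34 (median 4.99) in Pparα-/- CTRL. On HFD it gave 5.99 to 8.80 (median 8.17), 6.64 to 9.26 (median 7.72) and 4.64 to 5.24 (median 4.91). It was well above background on all 32 WT and Pparα hep-/- arrays, on 1 of 8 Pparα-/- CTRL arrays and on no Pparα-/- HFD array.

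On CTRL, Pparα-/- differed from WT by 0.90 ± 0.31 (adjusted p = 0.0207) at the brightest Col27a1 probe and by -2.25 ± 0.33 (adjusted p = 3.93e-07) at the second. On HFD the differences were -0.51 ± 0.27 (adjusted p = 0.114) and, at the second probe, at least 5.58-fold lower (adjusted p = 2.45e-13). Against Pparα hep-/- on HFD the second probe was at least 5.56-fold lower (adjusted p = 2.55e-12). Whether the second probe reads the same transcript as the first was not tested.

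On HFD both deleted lines exceeded WT for all 11 chains that rose in both. Pparα-/- against WT called 20 members, 18 higher, 14 without those that passed the filter in neither WT group (45.7% of all probes called, 21.8% higher), and Pparα hep-/- against WT called 14, all higher, 13 without Col12a1, which did so too (26.7% and 13.3%). With all arrays weighted alike these were 12 and 8 members, against 31.7% and 9.74% of all probes. Col1a1 was 4.83-fold higher than WT in Pparα hep-/- (2.27 ± 0.50, adjusted p = 0.000587) and 2.87-fold higher in Pparα-/- (1.52 ± 0.49, adjusted p = 0.0101). Col4a2 was 1.12 ± 0.21 (adjusted p = 8.21e-05) and 0.98 ± 0.21 (adjusted p = 0.000133) above WT, and Col14a1 0.96 ± 0.19 (adjusted p = 0.000129) and 1.09 ± 0.18 (adjusted p = 4.03e-06). Col4a5, which forms the type IV network of specialised membranes, was higher in Pparα hep-/- by 0.49 ± 0.17 (adjusted p = 0.0258) at its brightest probe. Its second tested probe read lower in Pparα hep-/- and was not called. No Pparα hep-/- HFD array and 2 of 8 WT HFD arrays measured that probe above background. The 2 comparisons share the WT HFD samples.

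Between the deleted lines on HFD, 9 members were called, 5 higher and 4 lower in Pparα-/- (30.6% of all probes called, 15.2% higher). The higher ones were Col20a1, Col6a5, Col5a2, Col6a4 and Col18a1, and the lower ones Col5a3, Col12a1, Col15a1 and Col7a1. Col6a4 and Col15a1 were tested only through the line in which they were higher. The Col12a1 difference was -0.51 ± 0.12 (adjusted p = 0.000582). For Col1a1 the difference was -0.75 ± 0.46 (adjusted p = 0.23) with a 95% interval of -1.68 to 0.18, and it was not called.

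Beside the brightest probes, 19 dimmer probes were tested, 10 of them described from Ensembl and 9 from RefSeq transcripts. Over 216 pairs of dimmer probe and comparison in which both probes were tested, 32 were called with the brightest probe in the same direction, 1 in the opposite one (Col27a1), 26 by the brightest alone and 4 by the dimmer alone. On HFD the chains called higher by their brightest probe had 11 dimmer probes in Pparα hep-/-, of which 9 were called higher, with changes of 0.20 to 2.31. In Pparα-/- they had 10, with changes of 0.21 to 1.46, of which 1 was called, the second Col1a1 probe. In Pparα-/- the dimmer probes gave 0.29 and 0.21 for Col1a2, where the brightest gave 1.24. For Col3a1 they gave 0.30 and 0.33 where the brightest gave 1.18. The second Col6a3 probe, printed above, gave 0.40 in Pparα hep-/- and 0.24 in Pparα-/-, where the brightest gave 1.06 and 1.09. The Col5a3 probe printed above was well above background on no Pparα-/- array and on 1 of 8 arrays of each WT group. It was called lower in Pparα-/- than in WT on CTRL (adjusted p = 0.0203), but the size of the difference is not given. Col22a1, whose brightest probe was not tested, had a dimmer probe tested only through Pparα-/- HFD, where its level differed by 0.33 from WT and by 0.28 from Pparα hep-/-.

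The genes that make, modify and remove collagen were read from a list of 8 roles, of which 63 genes were tested by their brightest probe. On HFD 29 rose and 5 fell in Pparα hep-/-, 25 rose and 2 fell in Pparα-/-, and 1 rose and 6 fell in WT. Of all tested probes, 20.2%, 24.8% and 18.8% were called in these comparisons, and the counts by role below stand beside the same shares. Their median log2 change was 0.37, 0.38 and -0.02. With all arrays weighted alike 3 and 6 were called in the deleted lines, where 3.81% and 12.1% of all probes were, and 6 in WT.

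For hydroxylation and glycosylation of the chains, 5 of 14 rose and 4 fell in Pparα hep-/-, and 4 rose and 1 fell in Pparα-/-. The prolyl 3-hydroxylase P3h2 changed by 0.67 (adjusted p = 3.13e-07) and 0.38 (adjusted p = 0.00138), and the glycosyltransferase Colgalt2 by -0.88 (adjusted p = 0.00148) and -0.66 (adjusted p = 0.0166). P4ha2, a prolyl 4-hydroxylase subunit, rose by 0.55 (adjusted p = 0.000683) in Pparα hep-/-, and P3h3 and P3h4 by 0.50 (adjusted p = 0.0148) and 0.48 (adjusted p = 0.009) in Pparα-/-. Of 4 chaperone and export genes, the collagen chaperones Serpinh1 and Fkbp10 rose in both lines, by 0.79 (adjusted p = 0.00637) and 0.99 (adjusted p = 0.00117) in Pparα hep-/- and by 0.69 (adjusted p = 0.0176) and 0.69 (adjusted p = 0.0239) in Pparα-/-.

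Propeptide removal showed 2 of 6 genes higher in Pparα hep-/-, the proteinases Adamts2 (0.75, adjusted p = 0.024) and Adamts14 (0.50, adjusted p = 0.00197), and 1 in Pparα-/-, the enhancer Pcolce (0.64, adjusted p = 0.018). Of 4 crosslinking genes, Loxl2 rose by 1.15 (adjusted p = 0.000935) in Pparα hep-/- and 0.78 (adjusted p = 0.024) in Pparα-/-, and Loxl1 by 0.89 (adjusted p = 0.017) in the former. Lox was not well above background often enough to be tested. Among 8 fibril partners 5 rose in Pparα hep-/-, led by the proteoglycan Lum (1.41, adjusted p = 0.000973), Postn (1.08, adjusted p = 0.000159) and Sparc (1.03, adjusted p = 0.00134), and 4 rose in Pparα-/-, led by Tnxb (0.70, adjusted p = 0.00286), Sparc (0.67, adjusted p = 0.0387) and Dcn (0.63, adjusted p = 0.0135).

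Of 10 degradation genes 6 were higher in Pparα hep-/-, led by the metalloproteinase inhibitor Timp1 (1.00, adjusted p = 0.00103), the gelatinase Mmp2 (0.92, adjusted p = 0.006) and the cathepsin Ctsk (0.89, adjusted p = 0.000453). In Pparα-/- 3 were higher, the collagenase Mmp13 (0.95, adjusted p = 0.00918), Timp3 (0.52, adjusted p = 0.0154) and the collagen uptake receptor Mrc2 (0.48, adjusted p = 0.0127). Of 8 receptor genes 4 rose and 1 fell in each line. The collagen receptor kinase Ddr1 rose by 0.64 (adjusted p = 0.0242) and 0.70 (adjusted p = 0.0147), the inhibitory receptor Lair1 by 0.50 (adjusted p = 0.0351) and 0.76 (adjusted p = 0.00183), and the integrin chain Itga11 by 0.57 (adjusted p = 0.014) in Pparα hep-/-. Ddr2 rose by 0.50 (adjusted p = 0.0188) in Pparα-/-. Of 9 genes of signals that raise collagen transcription 3 rose in Pparα hep-/- and 6 in Pparα-/-. Pdgfrb changed by 0.84 (adjusted p = 0.00386) and 0.71 (adjusted p = 0.0146), Tgfb2 by 0.69 (adjusted p = 0.0148) and 0.77 (adjusted p = 0.00723), Pdgfb by 0.48 (adjusted p = 0.0312) in Pparα hep-/-, and Tgfbr2 by 0.84 (adjusted p = 7.35e-05) in Pparα-/-.

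Some lists of markers of other liver cells moved with the collagens and others did not, and their part in the changes was not tested. Their counts stand beside 20.2% of all probes called in Pparα hep-/- and 24.8% in Pparα-/-. Of 12 tested markers of activated stellate cells and myofibroblasts, 9 rose on HFD in Pparα hep-/- and 5 in Pparα-/-. Their mean log2 level was 9.14 to 11.14 (median 9.39) in WT CTRL, 8.84 to 10.90 (median 9.50) in WT HFD, 9.37 to 11.68 (median 9.65) and 9.95 to 10.66 (median 10.40) in Pparα hep-/- on CTRL and HFD, and 9.21 to 10.85 (median 9.77) and 9.84 to 10.95 (median 10.41) in Pparα-/-. The smooth muscle actin gene Acta2 changed by 0.46 ± 0.09 (adjusted p = 0.000516) and 0.21 ± 0.10 (adjusted p = 0.118). Timp1, Loxl1, Postn, Lum and Dcn of this list are also among the pathway genes above, and its Lox and Cthrc1 were not tested. Of 12 general stellate cell markers 2 rose in Pparα hep-/- and 8 in Pparα-/-, and of 8 portal fibroblast markers 1 rose and 1 fell in Pparα hep-/- and none was called in Pparα-/-.

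Macrophage markers rose in 5 of 10 cases in Pparα hep-/- and 8 of 10 in Pparα-/-. The median of their mean level was 10.57 in Pparα hep-/- CTRL (highest 11.98) and 11.36 on HFD (highest 11.94), and 10.40 and 11.62 in Pparα-/- (highest 11.66 and 11.86). In WT it was 9.95 and 10.24, and 1 of the 10 fell on HFD. Gpnmb, a marker of lipid-laden macrophages, changed by 2.99 ± 0.54 (adjusted p = 0.000103) and 1.97 ± 0.56 (adjusted p = 0.0084). In 4 groups the mouse that was highest for more chains than any other was also highest for activated stellate, macrophage and portal fibroblast markers, namely mouse 6 in both WT groups, mouse 1 in Pparα hep-/- CTRL and mouse 2 in Pparα-/- CTRL. In Pparα-/- HFD that mouse was mouse 3, whereas mice 5, 4 and 5 were highest for the 3 lists. The general stellate cell markers were highest in mouse 6 of both WT groups and mouse 1 of Pparα hep-/- CTRL. In Pparα-/- they were highest in mouse 2 on CTRL and mouse 3 on HFD. Of 6 cholangiocyte markers 1 rose in Pparα hep-/- and none was called in Pparα-/-. Their mean level reached 9.36 in WT CTRL mouse 6 and 9.59 in Pparα hep-/- CTRL mouse 1, against group medians of 7.45 and 7.40. Of 8 endothelial markers 3 rose in each deleted line, and of the 3 tested mesothelial markers 1 rose in each. Of 7 hepatocyte markers 1 rose and 2 fell in Pparα-/-, and 1 fell in Pparα hep-/- and in WT. Their mean level was 17.13 to 17.35 in WT CTRL and 16.81 to 17.05 in Pparα-/- HFD, with the other groups between 16.80 and 17.31. The adipocyte, pancreas and red blood cell lists had no member that rose on HFD in the deleted lines. In WT 1 of 3 adipocyte markers rose, Cfd, by 5.79 ± 0.72 (adjusted p = 3.81e-07). The median over WT mice of the mean level of the 3 was 7.01 on CTRL and 9.15 on HFD, while their median log2 change was 0.06. On HFD 2 of the 3 were lower in Pparα-/- than in WT and 1 in Pparα hep-/-.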

How the data were processed

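Liver RNA of 48 mice was hybridised singly to Agilent 1-colour (Cy3) arrays of 59305 non-control spots. The deposited scanner files hold the median intensity of each spot from Feature Extraction 10.10.1.1, neither background-subtracted nor normalised, with probe coordinates in mm9. Their processed signal, scaled to the 75th percentile, was used in an alternative. The authors also deposited log2 values, filtered, quantile normalised and corrected for the washing bath, which served as an alternative (32816 probes). Groups came from the labels.

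The median signal of each spot was taken to log2, 5660 outlier spots were left out and spots of a probe were averaged over 56605 probes. The 33321 probes that exceeded background clearly in 4 or more of the 8 mice of some group were quantile normalised and fitted with limma 3.58.1 (R 4.3.3), using group means, a wash batch term, array weights and Benjamini-Hochberg adjustment over all tested probes in each of 12 comparisons. An adjusted p up to 0.05 counted as a call. Errors are SE from this model. The number of arrays limits precision. A difference is given as a bound where all arrays of a group were below background and all of the other group above it. The bound was set by the higher of the lowest signal well above background and the probe's own. Where the other group also had arrays below background, no size is given. Fold changes of other dim probes are understated by background.

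Members and gene lists were chosen with earlier results of these data known. Levels by group are given for 13 chains fixed by name, for the 3 called members with the largest change in each direction of each comparison and for a member with probes called in opposite directions (20 genes in all). Other chains were named after their values were seen, to account for every call. Pathway genes were named by the 3 largest called changes per role. Alternatives covered array weights, background correction, scaling, the filter, batch terms, single arrays and the deposited log2 values. Nothing says that replicates of a group came from separate litters or cages.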

Additional observations from a re-analysis of the deposited data

Results flagged for a closer look

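In 20 chains and 6 groups, 120 sets of 8 mice were examined for a mouse whose distance from its nearest neighbour was above the critical share of the group's range in Dixon's test. This held for 19, and chance gives about 1 in 20 sets. Pparα hep-/- CTRL mouse 1, the array of lowest weight (0.189), was highest for Col1a2 (13.97), Col4a1 (10.90), Col4a2 (11.01), Col6a1 (12.30), Col6a2 (9.15), Col6a3 (12.71) and Col6a5 (6.44), and lowest for Col27a1 (8.51). WT CTRL mouse 6 (weight 0.208) was highest for Col15a1 (6.36) and Col5a1 (9.64). WT HFD mouse 6 (weight 0.372) was highest for Col1a2 (14.24), Col5a1 (10.27) and Col6a2 (8.25).

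The remaining cases concerned single chains. For Col18a1, WT HFD mouse 5 was low at 16.16, Pparα hep-/- HFD mouse 2 low at 16.30 and Pparα-/- CTRL mouse 3 high at 16.82. Pparα hep-/- CTRL mouse 3 was low for Col20a1 (6.36), Pparα hep-/- HFD mouse 8 high for Col5a3 (11.67), and WT HFD mouse 5 high for Col6a5 (7.02).

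The HFD response differed between genotypes by the limma interaction term at the brightest probe of 3 chains, and also at the second Col1a2 probe, which was dim (1.12 ± 0.34, adjusted p = 0.0268). Against WT, that of Pparα hep-/- was higher by 0.76 for Col12a1 and by 0.43 for Col7a1, and that of Pparα-/- differed by -1.41 for Col27a1. None of the 4 was called with all arrays weighted alike.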

How the results depend on the processing

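Of 95 called fold changes of named chains, 92 kept direction and call with the deposited log2 values, 91 with processed signals scaled to the 75th percentile, 90 with normexp correction, 74 with no filter on dim probes and 48 with all arrays weighted alike. The causes of the losses were not tested. With all arrays alike, called members numbered 1 in Pparα hep-/- and 4 in Pparα-/- on HFD, 1 for Pparα hep-/- against WT on CTRL, 12 and 8 for Pparα-/- and Pparα hep-/- against WT on HFD, and 0 for both differences in response from WT.

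The other alternatives of this kind were chosen after seeing the data. Without WT CTRL mouse 6 and with all arrays alike, the counts were 1 and 5 on HFD, 13 for Pparα-/- against WT on HFD, and 0 for both responses. Without Pparα hep-/- CTRL mouse 1 they were 5 and 5, 13, and 0, with 4 for Pparα-/- against Pparα hep-/- on CTRL. Without both, that last count was 4 and both responses gave 0. With weights kept, leaving out either array gave 15 to 16 in Pparα hep-/- on HFD, 14 in Pparα-/-, 1 in WT, 11 for Pparα-/- against WT on CTRL, 2 to 3 for Pparα hep-/- against WT on CTRL, 7 for Pparα-/- against Pparα hep-/- on CTRL, 20, 15 and 9 in the same order on HFD, and 2 to 4, 1 and 0 for the responses.

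Within wash batch 1, also chosen after seeing the data, counts were 7 in Pparα hep-/- on HFD, 6, 1 and 4 on CTRL for Pparα-/- against WT, Pparα hep-/- against WT and Pparα-/- against Pparα hep-/-, 9 and 5 on HFD for Pparα hep-/- against WT and Pparα-/- against Pparα hep-/-, and 0 and 2 for the responses of Pparα hep-/- and Pparα-/- against WT. Within batch 2 they were 0, 6 and 2 on HFD in WT, Pparα hep-/- and Pparα-/-, 1 and 4 on CTRL for Pparα hep-/- against WT and Pparα-/- against Pparα hep-/-, and 0 and 0 for those responses. Of all probes, 4.93% to 21.8% were called in these comparisons of groups within batch 1, and 2% to 17% within batch 2. Each batch holds fewer arrays. With all tested probes in place of the brightest, 24 probes were called in Pparα hep-/- on HFD and 22 against WT on HFD. With no filter, 1 was called for Pparα hep-/- against WT on CTRL and 0 for both responses. The response of Pparα hep-/- against WT gave 1 with slide as a block and 1 without the wash term. That of Pparα-/- gave 2 with scaled processed signals, where its difference from Pparα hep-/- gave 1, and 2 with the filter at 8 of 8 arrays.

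Of the called changes 2 reversed direction: Col1a1 in Pparα-/- on HFD within batch 2 (-0.12), and Col23a1 between Pparα-/- and Pparα hep-/- on CTRL within batch 1 (-0.05). Col18a1 in Pparα-/- on HFD, 0.05 and not called, was called at -0.23 with scaled processed signals. Changes of sign in which neither value was called are not counted.

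Replicate numbers did not pair the mice: same-numbered mice of different groups correlated at a mean of 0.0143 (-0.449 to 0.694, 120 pairs). With the replicate block, 15 members were called in each deleted line on HFD and 1 for the response of Pparα hep-/- against WT.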
